A study of Bos taurus with 6 samples.

Results

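The nuclear pore and RNA export machinery of bovine longissimus muscle was represented by 59 transcripts of 57 genes among the 5288 transcripts that the authors listed as different between embryonic and adult muscle. The members were taken by annotation, as rows with the KEGG label RNA transport or the GO label mRNA transport. Of the 90 rows with either label, 31 were set aside, namely 24 with symbols of translation initiation or elongation factors (EIF and EEF) and 7 others that also carry the spliceosome label. Of the members, 44 have the KEGG label alone, 8 the GO label alone and 7 both. The embryonic group was 3 Qinchuan cattle embryos at 90 days after fertilization and the adult group 3 Qinchuan cattle at 24 months after birth. No treatment or genetic change was applied to either group, and the samples came from a slaughterhouse as pieces of whole muscle, so that fewer cells of a type and less RNA per cell cannot be told apart. RNA was freed of ribosomal RNA and sequenced as paired ends. The table used here holds 1 FPKM value (fragments divided by exon length and by sequencing depth) per stage for each transcript, with no value for single animals. The authors called the listed transcripts different by a test of their own, whose p-values were not used here. From the values used, no spread between animals, further test or replicate check could be had for the differences below, and the number of fragments behind each value is unknown.

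RNA leaves the nucleus through the nuclear pore complex, a ring-shaped channel of many nucleoporins set in the nuclear envelope. Messenger RNA is packaged during capping and splicing, handed to the receptor NXF1 and its partner NXT1 by adaptors of the TREX complex, and released at the cytoplasmic face by the helicase DDX19 with GLE1. Other RNAs and most proteins are carried by karyopherins, whose direction is set by the GTPase Ran. In muscle fibres, which hold many nuclei in a common cytoplasm, nucleoporin composition is known from mouse myoblasts to differ with differentiation.

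Nearly all members were higher in adult muscle. Of the 59 transcripts, 57 were higher in the adult (96.6%, against 90.3% of all listed transcripts) and 2 were lower (3.39%, against 9.68%). The median log2 ratio of adult to embryonic FPKM was 2.53 over the members and 2.71 over all listed transcripts, so that the members lay near the middle of the table. The quartiles of the members were 2.02 and 3.53. A minimum of 4-fold was passed upward by 45 members (76.3%, background 69.5%), 8-fold by 22 (37.3%, background 41.5%), 16-fold by 12 (20.3%, background 20.1%) and 32-fold by 1, PAIP1 (1.69%, background 8.74%). Up to 16-fold these shares lay near the background, and no difference from it was tested. A 4-fold minimum was passed downward by 0 members (background 5.5%). Transcripts less than 2-fold apart are not in the table unless one stage is 0, and a member just inside this limit was RANGAP1, at 2.19-fold. Members that the authors did not list enter none of these counts.

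**Figure D1:**
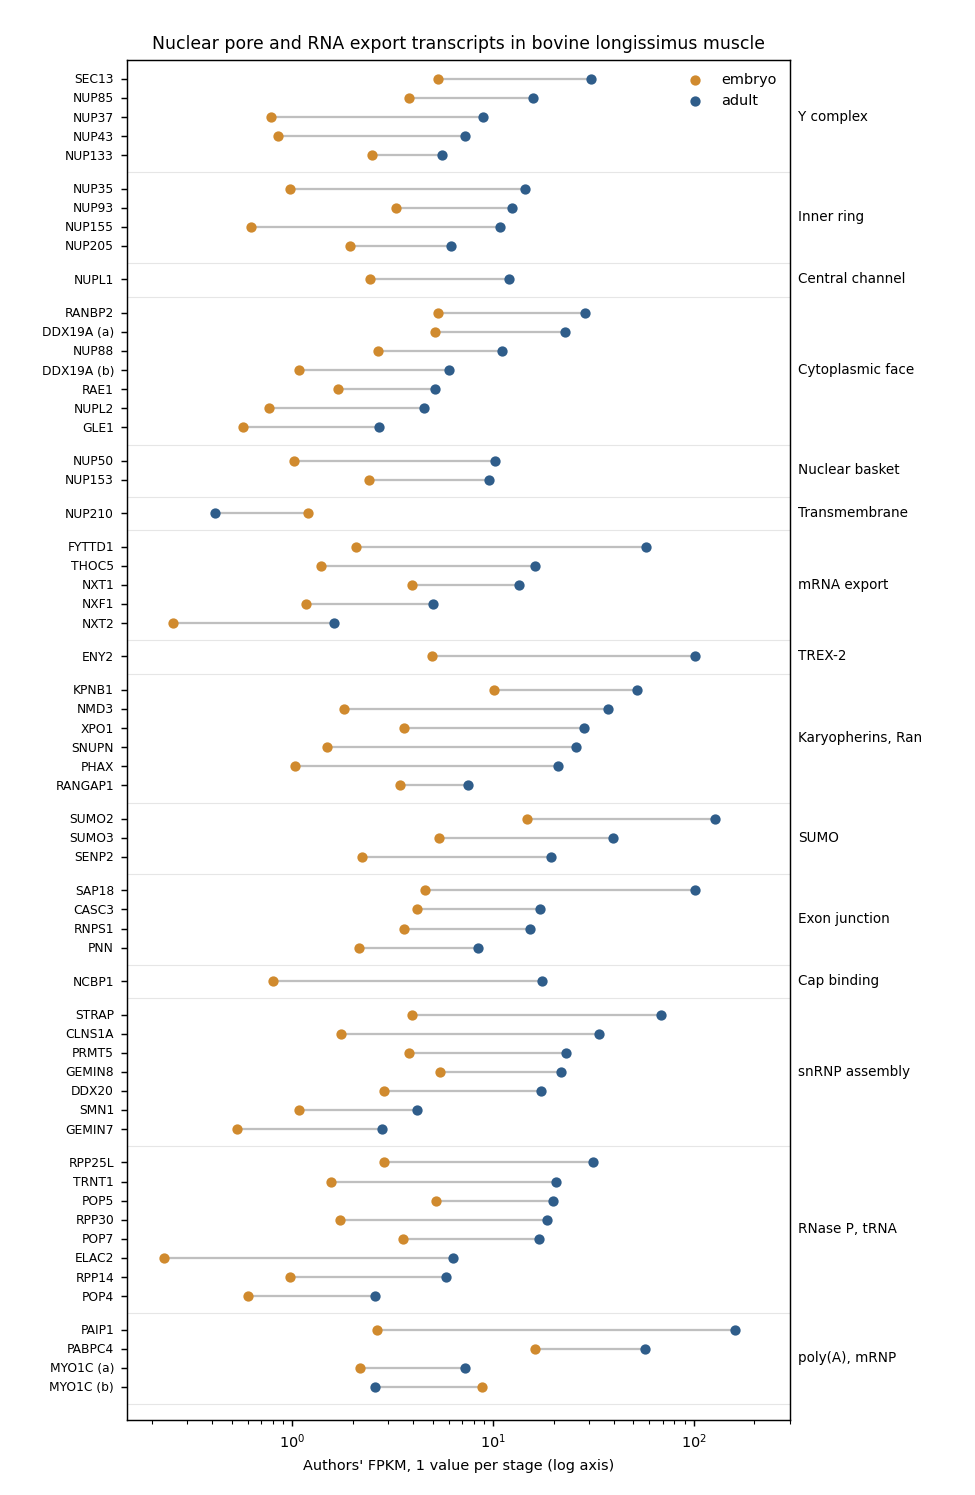
Authors' FPKM of each of the 59 member transcripts in embryonic (orange) and adult (blue) longissimus muscle on a log axis, 1 value per stage, grouped by role and joined by a grey line. The adult point lies to the right of the embryonic point in 57 transcripts and to the left in NUP210 and 1 MYO1C transcript.

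Levels in the embryo were low. The embryonic FPKM of the members ranged from 0.229 for ELAC2 to 16.1 for PABPC4 with a median of 2.22, and 12 members were below 1. In the adult, FPKM ranged from 0.415 for NUP210 to 160 for PAIP1 with a median of 15.8, and 38 members were above 10. Over all listed transcripts the medians were 1.77 in embryonic and 11.0 in adult muscle. The members together made up 0.259% of the FPKM total of the listed transcripts in embryonic and 0.216% in adult muscle. Across the 59 members the embryonic and adult FPKM had a Spearman correlation of 0.61, against 0.63 across the 5248 listed transcripts above 0 in both stages. These are descriptions across transcripts of the same libraries. The order of the most abundant members differed between the stages, since PABPC4, SUMO2 and KPNB1 led in the embryo and PAIP1, SUMO2 and ENY2 in the adult. With 1 value per stage, it cannot be said which neighbours in these orders differ beyond their spread.

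The Y complex forms the outer rings of the pore on both faces of the envelope. All 5 listed members were higher in the adult, with a median log2 ratio of 2.53. Here and below, a pair of values for a transcript is the authors' FPKM in the embryo and then in the adult, followed by the log2 ratio. NUP37, a beta-propeller subunit of this complex, had 0.782 in embryonic and 8.93 in adult muscle, a log2 ratio of 3.51. NUP43, another beta-propeller subunit, followed with 0.845 and 7.28 (3.11). SEC13, which also coats vesicles that leave the endoplasmic reticulum, was the most abundant of the 5, with 5.34 and 30.9 (2.53). The structural subunits were less far apart. NUP85 had 3.83 and 15.8 (2.04), and NUP133, at one end of the complex, had 2.51 and 5.58 (1.15), the smallest ratio of the 5. NUP107, NUP160, SEH1L and AHCTF1 of the same complex have no row under these symbols.

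The inner ring holds the pore together around its channel, and its listed members comprised a pair with large and a pair with small ratios. NUP155, which connects the ring to the membrane, had 0.622 in embryonic and 10.8 in adult muscle (log2 ratio 4.11). NUP35, its small partner at the membrane, had 0.970 and 14.4 (3.89). NUP93, the linker that anchors the channel nucleoporins, had 3.30 and 12.5 (1.92), and NUP205, a large scaffold subunit, had 1.94 and 6.19 (1.67). In the adult these 4 transcripts lay between 6.19 and 14.4, and in the embryo between 0.622 and 3.30, so that the members with the lower embryonic values were the ones with the larger ratios. The embryonic values of NUP155 and NUP35 are below 1, and the size of their ratios rests on them.

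The channel, the basket and the membrane ring were each represented by few transcripts. NUPL1, named NUP58 in RefSeq, carries phenylalanine-glycine repeats in the central channel and had 2.43 in embryonic and 12.0 in adult muscle (log2 ratio 2.30). In the nuclear basket, where messenger RNA first docks, NUP50 had 1.02 and 10.2 (3.33) and NUP153 had 2.40 and 9.58 (2.0). NUP210, a nucleoporin that spans the membrane and is needed for muscle differentiation in mouse cells, was lower in the adult. Its authors' FPKM was 1.20 at the embryonic and 0.415 at the adult stage, a log2 ratio of -1.54 or 2.90-fold lower, and its adult value was the lowest of all members. The listed locus of NUP210 is on chromosome 22 from 59167681 to 59245323 as the table gives it; the study's methods name bosTau7 for alignment, and whether the listed coordinates follow that build was not checked. NUP210 was the only listed member of the pore below its embryonic value. Its adult value is below 1, so that it drops out where FPKM above 1 is asked for in both stages. NDC1, POM121, POM121C and NUP210L, the other membrane nucleoporins of the list, have no row.

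At the cytoplasmic face, where the export receptor is stripped from messenger RNA, the 7 transcripts of 6 genes had similar ratios. All were higher in the adult, with log2 ratios from 1.61 to 2.57 and a median of 2.26, and none reached 8-fold (background 41.5%). RANBP2, the large filament protein that binds Ran and acts as a SUMO ligase, was the most abundant, with 5.32 in embryonic and 28.6 in adult muscle (2.43). NUP88, which holds the filaments, had 2.67 and 11.1 (2.06). RAE1, an RNA export factor that pairs with NUP98, had 1.69 and 5.14 (1.61), and NUPL2, named NUP42 in RefSeq, had 0.767 and 4.54 (2.57). GLE1, the activator of the DDX19 helicase, was low at both stages, with 0.568 and 2.71 (2.26). Both listed transcripts of the helicase DDX19A were higher, by 2.16 with 5.14 and 22.9 and by 2.48 with 1.08 and 6.05. The first of them made up 82.6% of the DDX19A sum in embryonic and 79.1% in adult muscle, so that the makeup of this gene was similar at both stages. Its relative DDX19B, which carries neither label, had 1.44 and 12.5 (3.12), and reads shared by these near-identical genes could have been split between them.

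Taken as a whole, the 20 transcripts of the pore had a median log2 ratio of 2.28 and the 39 other members one of 2.66. Ratios of at least 16-fold were found for 1 of the 20 pore transcripts, NUP155, and for 11 of the 39 others (background 20.1%). The difference between these medians was not tested.

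**Figure D2:**
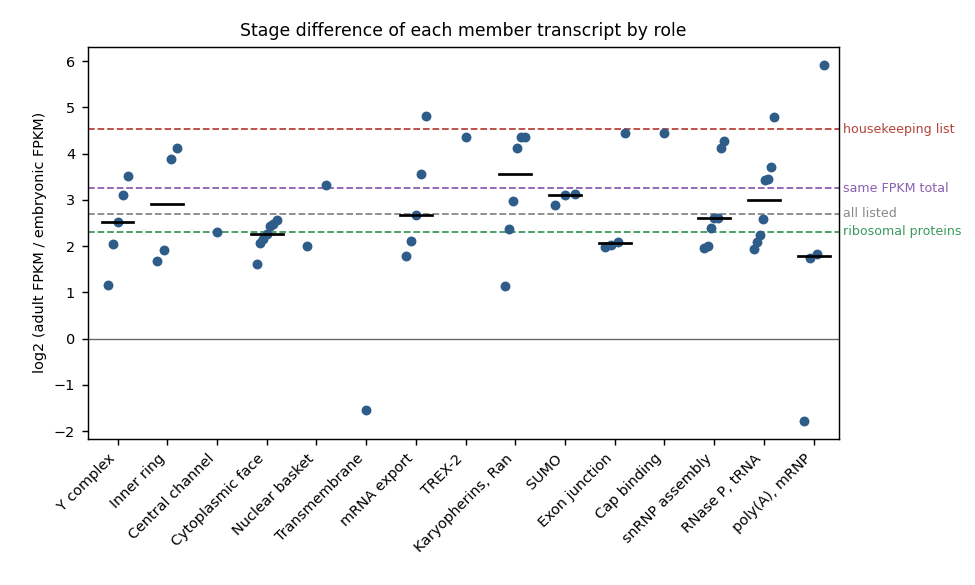
Log2 ratio of adult to embryonic FPKM of each member transcript (blue points) by role, with black bars at the medians of roles with at least 3 transcripts. Dashed lines mark the shifts of the 4 other scalings, from 2.31 for the cytosolic ribosomal proteins to 4.52 for the housekeeping list, and points under a line turn lower in the adult under that scaling.

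The receptor and adaptors of messenger RNA export differed widely among themselves, although all 5 listed members were higher in the adult (median log2 ratio 2.66). Another 6 listed transcripts of this role are not members, and all 6 were higher as well (median 2.57). FYTTD1, an adaptor that brings messenger RNA to NXF1, had 2.07 in embryonic and 57.9 in adult muscle, a log2 ratio of 4.81. THOC5, a TREX subunit that contacts NXF1, had 1.38 and 16.3 (3.55). The receptor itself had lower values. NXF1 had 1.17 and 5.04 (2.10), and its partner NXT1 had 3.93 and 13.4 (1.78). NXT2, a second partner, had the lowest embryonic value of this group at 0.256 and reached 1.62 in the adult (2.66). In the adult, therefore, the level of the adaptor FYTTD1 was above that of every other member of this group, while in the embryo NXT1 was the highest. Outside the members, DDX39B and CIP29 of this role reached 54.5 and 53.9 in the adult, close to FYTTD1. ENY2, a small subunit shared by the TREX-2 complex at the pore and the SAGA coactivator, had 4.95 and 101 (4.35). NCBP1, the large subunit of the nuclear cap-binding complex, had 0.800 and 17.5 (4.45).

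Among carriers that exchange cargo under control of Ran, taken with their adaptors and the Ran cycle, all 6 listed members were higher in the adult. Their median log2 ratio was 3.55. The 3 largest ratios belonged to adaptors of particular RNAs. NMD3, which hands the large ribosomal subunit to the exportin XPO1, had 1.82 in embryonic and 37.3 in adult muscle (4.36). PHAX, the adaptor for export of small nuclear RNAs, had 1.03 and 21.1 (4.35), and SNUPN, which returns assembled small nuclear ribonucleoproteins to the nucleus, had 1.49 and 26.0 (4.13). Of these 6 members, the general carriers XPO1 and KPNB1 had smaller ratios than these adaptors. Importin alphas, which are not members, went both ways from these adaptors. KPNA3, KPNA1 and KPNA4 had larger ratios (6.25, 5.59 and 4.94), and KPNA6 and KPNA2 smaller ones (3.79 and 1.94). Ratios of the other exportins and importins outside the members ran from 1.60 for XPO7 to 4.06 for IPO7. XPO1 had 3.61 and 28.4 (2.98), and the importin beta KPNB1 had 10.1 and 52.4 (2.38). RANGAP1, the activator of Ran's GTPase at the cytoplasmic filaments, had 3.44 and 7.52 (1.13), the smallest ratio among the members that were higher in the adult.

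The 3 listed members of the SUMO pathway, which modifies RANGAP1 and anchors it to RANBP2, had nearly the same ratio. SUMO2 had 14.8 in embryonic and 127 in adult muscle (log2 ratio 3.11), SUMO3 had 5.36 and 39.4 (2.88), and the SUMO protease SENP2 had 2.22 and 19.4 (3.13). SUMO2 was the second most abundant member at both stages. SUMO2 and SUMO3 are close in sequence, and reads that match both could have been split between them. The listed loci of NUP85 (56855651 to 56905608) and SUMO2 (56923423 to 56931160) on chromosome 19 are 17.8 kb apart with no other listed gene between them. No other pair of members lay within 500 kb, and the 57 genes are spread over 25 chromosomes. Of the 57, 7 are on chromosome 19, which holds 320 of the 5206 listed genes, and no difference in share was tested.

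Proteins laid down on spliced messenger RNA were higher in the adult in all 4 members. SAP18, which joins the exon junction complex and a histone deacetylase complex, had 4.60 in embryonic and 101 in adult muscle (log2 ratio 4.45). The other 3 members lay close together, with RNPS1 at 3.61 and 15.3 (2.09), the core protein CASC3 at 4.19 and 17.2 (2.03) and PNN, or pinin, at 2.15 and 8.44 (1.97). The core proteins MAGOH, RBM8A and MAGOHB, which were set aside for their spliceosome label, had log2 ratios of 3.00, 2.44 and 1.41. All 8 members that also carry the mRNA surveillance label were higher in the adult, with a median of 2.06, against 2.69 for the 40 listed transcripts with that label.

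Assembly factors of small nuclear ribonucleoproteins were higher in the adult in all 7 cases (median log2 ratio 2.60). The SMN complex loads Sm proteins onto exported small nuclear RNAs in the cytoplasm. STRAP, a WD-repeat protein bound to this complex, had 3.94 in embryonic and 68.7 in adult muscle (4.13), and CLNS1A, which presents Sm proteins for methylation, had 1.75 and 33.7 (4.27). PRMT5, the methyltransferase itself, had 3.81 and 23.2 (2.61), and the helicase DDX20 had 2.87 and 17.4 (2.60). SMN1, the gene lost in human spinal muscular atrophy and listed under SMN2 in RefSeq, had 1.08 and 4.18 (1.96), the smallest ratio of the 7. GEMIN8 had 5.42 and 21.7 (2.01), and GEMIN7 had 0.533 and 2.80 (2.39). In adult level and in ratio, STRAP and CLNS1A thus stood above the other listed members of this group, and GEMIN2, GEMIN4, GEMIN5 and GEMIN6 have no row.

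Enzymes that mature transfer RNA before its export were also higher in the adult in all 8 cases, with a median log2 ratio of 3.00. RNase P, which trims the leader of transfer RNA precursors, shares most of its proteins with RNase MRP. ELAC2, which cuts the trailer, had the lowest embryonic FPKM of all members, 0.229, and 6.34 in the adult (4.79). TRNT1, which adds the terminal CCA, had 1.56 and 20.5 (3.71). Among transcripts grouped with RNase P, RPP25L had 2.87 and 31.5 (3.46) and RPP30 had 1.73 and 18.6 (3.42). RPP25 itself has no row. The others had smaller ratios, namely RPP14 with 2.59, POP7 with 2.24, POP4 with 2.10 and POP5 with 1.94. POP4 was the least abundant of the group in the adult, at 2.58, and RPP25L the most abundant.

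PAIP1 had the largest ratio of all members. It binds the poly(A)-binding protein and the translation initiation machinery, and its FPKM was 2.64 in embryonic and 160 in adult muscle, a log2 ratio of 5.92 or 60.6-fold. Among the members it ranked 26 in embryonic and 1 in adult muscle. PABPC4, a cytoplasmic poly(A)-binding protein, was the most abundant member in the embryo at 16.1 and reached 57.1 in the adult (1.82). PABPC1, the best known protein of this family, has no row.

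MYO1C, a motor protein of the myosin I class with cytoplasmic and nuclear forms, had transcripts that went in opposite directions in the FPKM as deposited. It is a member by its GO label and stands in the poly(A) and mRNP group for want of a closer role. One transcript had 8.82 in embryonic and 2.57 in adult muscle (log2 ratio -1.78, 3.43-fold lower), and the other, from the same listed locus, had 2.17 and 7.25 (1.74). The first made up 80.3% of the MYO1C sum in embryonic and 26.2% in adult muscle. The sum of both was 11.0 in embryonic and 9.82 in adult muscle, a log2 ratio of -0.16. The small difference of the sum, like the opposite directions, holds for the values as deposited, since under the 4 other scalings the second transcript was lower as well and the log2 ratio of the sum lay between -4.68 and -2.47. How the fragments of this locus, on chromosome 19 from 23168430 to 23191280, were divided between the transcripts rests on the authors' assembly.

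**Figure D3:**
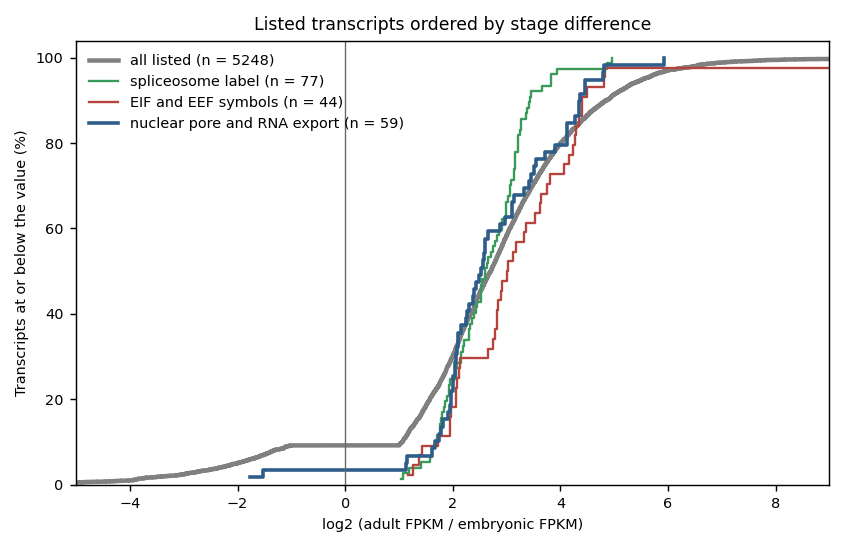
Cumulative share of transcripts (vertical axis, %) at or below each log2 ratio of adult to embryonic FPKM (horizontal axis, shown from -5 to 9) for the 59 members (blue), all 5248 listed transcripts above 0 in both stages (grey), 77 with the spliceosome label (green) and 44 with EIF or EEF symbols (red). The blue curve runs near the grey one, with medians of 2.53 and 2.71.

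Related classes of the same table stood close to the members. The 77 transcripts with the spliceosome label were all higher in the adult, with a median log2 ratio of 2.60, as were the 44 with EIF or EEF symbols, with 3.01. The 28 transcripts with the ribosome biogenesis label that are not members were all higher as well (3.05). The 31 rows that share the members' labels and were set aside were all higher, with a median of 3.00. Among them, the export helicase DDX39B had 15.8 and 54.5 (1.78), the adaptor ALYREF had 6.49 and 32.1 (2.31), and NCBP2, the small cap-binding subunit and partner of NCBP1, had 0.653 and 6.06 (3.21). Differences between these classes were not tested.

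Most other transport genes, from lists by role, went the same way where they are listed, as did 90.3% of all listed transcripts. IGF2BP2 and KHSRP, of the poly(A) and mRNP list, were lower in the adult (-1.84 each). Of 35 symbols of karyopherins and the Ran cycle, 20 have a row, and all 20 transcripts were higher in the adult, with a median log2 ratio of 3.57. The 14 of them that are not members include 5 importin alphas, the adaptors that bind nuclear localization signals. KPNA3 had 1.20 in embryonic and 91.1 in adult muscle (6.25), KPNA1 had 0.678 and 32.7 (5.59), and KPNA2 had 4.11 and 15.8 (1.94), the smallest ratio of the 5. RANGRF, a Ran-binding protein that also regulates a sodium channel, had 0.417 and 21.5 (5.69). RAN itself had 0.534 and 2.97 (2.48). SHFM1, a small acidic subunit of TREX-2 and the proteasome, had 9.96 and 636 (6.0). Over the lists of all 15 roles, 102 of 193 symbols have a row and 91 have none. Of 35 symbols of nucleoporins and factors at the pore, 15 have none, among them NUP62, NUP98, NUP214 and TPR. A missing row can mean a gene that was not listed as different or one listed under another name.

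The authors' GO tables give the number of annotated genes behind the listed ones. Of 33 background genes annotated to mRNA transport, 23 were listed as different (69.7%), and for the nuclear pore the numbers were 21 of 39 (53.8%). For mRNA export from the nucleus they were 13 of 25 (52%), and for the nuclear pore outer ring 4 of 6 (66.7%). For protein import into nucleus the numbers were 17 of 41 (41.5%), and for nucleocytoplasmic transport, the largest of these terms, 40 of 124 (32.3%). Over all terms, 4861 of 21673 genes were listed (22.4%). No enrichment was tested here. The paper describes the terms of its GO tables as significantly enriched among the genes it called. Shares above 22.4% therefore follow from how these terms were selected and are no separate result. The label mRNA transport was also used to take the members. The numbers may count transcripts, since the 23 rows with the mRNA transport label come from 21 genes. Of the 21 rows with the nuclear pore label, 20 were higher in the adult and 1 lower, with a median log2 ratio of 2.16.

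The direction of most members depended on how the stages were scaled to each other. The FPKM values as deposited assume that equal totals of mapped fragments make the stages comparable. The paper reports a much smaller share of mapped reads in exons, and a much larger share in introns, for embryonic than for adult samples. The part of this difference in the ratios was not tested. Centring on the median of all listed transcripts lowered every log2 ratio by 2.71 and left 24 of 59 members higher in the adult (49.8% of all listed). Centring on 72 transcripts of cytosolic ribosomal proteins, a shift of 2.31, left 34 higher (60.3%). Giving both stages an equal FPKM sum, a shift of 3.25, left 19 higher (35.1%). Centring on a housekeeping list, of which 17 of 30 symbols have a row, was a shift of 4.52 and left 3 higher (13.3%). These 3 were PAIP1, FYTTD1 and ELAC2, which thus stayed higher in the adult under each of the 4 scalings. With the housekeeping shift their log2 ratios were 1.40, 0.28 and 0.27, so that FYTTD1 and ELAC2 stayed higher by little. The ratio of ELAC2 also rests on an embryonic FPKM of 0.229, the lowest of all members. NUP210 and the first MYO1C transcript, lower as deposited, could not turn higher, since each of the 4 shifts lowers every ratio. The second MYO1C transcript turned lower under all 4. The shifts were computed from a table of transcripts that were mostly higher in the adult, so that their size depends on that choice.

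**Figure D4:**
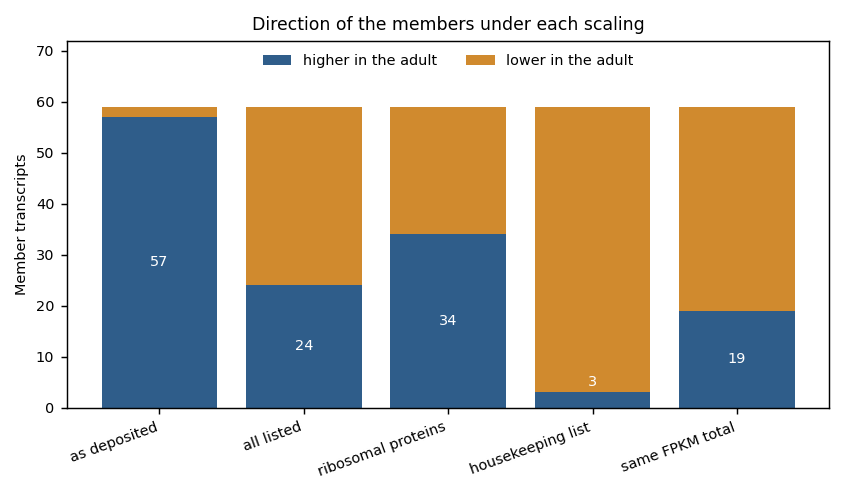
Number of the 59 member transcripts higher (blue) or lower (orange) in the adult with FPKM as deposited and under 4 other scalings of the stages. The number higher is 57 as deposited, 24 centred on all listed transcripts, 34 on ribosomal proteins, 3 on the housekeeping list and 19 with the same FPKM total.

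Markers of the tissue moved with the stages as well. Of 13 muscle fibre symbols 8 have a row, and their 9 transcripts were all higher in the adult, with a summed FPKM of 4267 in embryonic and 119156 in adult muscle. One TNNT3 transcript is listed at 0 in the embryo. Of 6 fibroblast symbols 3 have a row, with a sum of 772 in embryonic and 106 in adult muscle, where COL1A1 and COL1A2 were lower and PDGFRA higher. Cartilage markers (3 of 5, sum 15.8 and 0.575) and Schwann cell markers (2 of 5, sum 13.2 and 0.486) were all lower in the adult, and endothelial markers (3 of 5, sum 10.3 and 35.9) and ADIPOQ, the 1 of 5 adipocyte markers with a row, were higher. None of 7 blood markers has a row. These directions are those of the FPKM as deposited. PDGFRA (log2 ratio 1.28), KDR (1.43), VWF (2.05) and TEK (2.30) turn lower in the adult under each of the 4 scalings, whereas ADIPOQ (4.74) stays higher under each. Of the muscle fibre transcripts, TNNC2 (3.95), DES (3.95) and TNNI2 (4.48) turn lower with the housekeeping shift of 4.52 alone. The part of these cell types in the members' values was not tested.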

How the data were processed

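After adapter removal with Trim Galore, reads were mapped by the authors to bosTau7 with TopHat2 2.0.14, and Cufflinks was used for assembly and abundance. The authors deposited FPKM values, a single value for each stage, of the transcripts they called different, with adult and embryonic values in separate columns. The molecule is given as polyA RNA, whereas the protocols, per the labels, removed ribosomal RNA. How the 3 libraries of a stage were combined is not given in the sources used here. The deposited table also holds the authors' fold changes, p-values and q-values, which were not used. The deposited GO tables give gene numbers per term, and their p-values were not used.

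Log2 ratios of adult to embryonic FPKM were computed without a pseudocount in Python 3.11.15 (pandas 2.3.3, numpy 2.4.6, scipy 1.17.1), and the computation was tested on simulated data. Medians were taken for groups of at least 3 transcripts. With 1 value per stage no test was run. Higher and lower refer to the sign of the ratio. Alternatives were pseudocounts of 1 and 0.1, FPKM above 1 in one or both stages, a 4-fold minimum, distinct genes, 4 scalings and each annotation alone. The members and lists were chosen with earlier results of these data known. Every member may be named, and of other lists up to 4 genes with the largest ratio. Exceptions are examples such as DDX39B, ALYREF, NCBP2, KPNA2, KPNA6, XPO7, IPO7, RAN, MAGOHB, EMD, IGF2BP2 and KHSRP. These were chosen after their values were seen, as was the role given to FYTTD1. All 57 member symbols matched the RefSeq gene table of ARS-UCD2.0, 54 by symbol and 3 by synonym. No genome of the files' build was used, so coordinates are those of the deposited table. The library total behind each value is not used here, and depth per transcript is unknown.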

Additional observations from a re-analysis of the deposited data

How the results depend on the processing

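No paired analysis was possible because the columns carry no replicate numbers, and the paper describes no pairing of embryos with adults. No library could be left out, since each column holds a single value for a whole stage. With a pseudocount of 1 the median log2 ratio of the members was 1.97, with 0.1 it was 2.41, and with an FPKM above 1 in both stages it was 2.40 (45 higher, 1 lower). With a 4-fold minimum it was 2.98 (45 higher, 0 lower) and over distinct genes 2.57. The KEGG label alone gave 2.57 (50 higher, 1 lower), the GO label alone 2.26 (14 higher, 1 lower) and keeping the rows set aside 2.74 (88 higher). Without MYO1C and NUP210, an alternative chosen after seeing the data, it was 2.58 (56 higher, 0 lower).

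Centred on all listed transcripts, the members' median was -0.17 (24 higher, 35 lower), and medians turned negative for the Y complex (-0.17), the cytoplasmic face (-0.45), mRNA export (-0.043), the exon junction complex (-0.65), snRNP assembly (-0.11) and poly(A) and mRNP binding (-0.92), a group of 4 transcripts of which 2 are MYO1C. Centred on ribosomal proteins, it was 0.22 (34 higher, 25 lower), with negative medians for the cytoplasmic face (-0.051), the exon junction complex (-0.25) and poly(A) and mRNP binding (-0.53). Centred on the housekeeping list, it was -1.99 (3 higher, 56 lower), with -1.99 for the Y complex, -1.62 for the inner ring, -2.27 for the cytoplasmic face, -1.86 for mRNA export, -0.97 for karyopherins, -1.41 for SUMO, -2.46 for the exon junction complex, -1.92 for snRNP assembly, -1.52 for RNase P and -2.74 for poly(A) and mRNP binding. With the same FPKM total, it was -0.72 (19 higher, 40 lower), with -0.72, -0.35, -1.0, -0.59, -0.15, -1.19, -0.65, -0.25 and -1.47 for the same groups in the same order, apart from karyopherins, which stayed positive. Each shift is a constant, so that the reversals follow from its size.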

Other observations

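Of 17 symbols of the nuclear lamina and inner nuclear membrane, to which the pore is attached, 5 have a row, and all 5 transcripts were higher in the adult, with a median log2 ratio of 2.08. BANF1, which tethers chromatin to the envelope, had an authors' FPKM of 37.3 at the embryonic and 254 at the adult stage (2.76), each above the level of every member at that stage. EMD, or emerin, had 3.91 and 11.8 (1.59), LEMD3 had 0.426 and 2.42 (2.51), and LBR, the lamin B receptor, had 0.905 and 3.84 (2.08). LMNA, LMNB1 and LMNB2 have no row. Centred on all listed transcripts, the median of this list would also lie below 0, since the shift is 2.71.

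RNA-binding proteins that sort or stabilize messenger RNA, outside the members, included transcripts of both directions. Of 11 such transcripts, 9 were higher in the adult and 2 lower. FXR1, a muscle-enriched relative of the fragile X protein, had 2 listed transcripts, with 11.3 and 272 (log2 ratio 4.58) and with 4.6 and 73.0 (3.99), and FXR2 had 4.89 and 97.9 (4.32). IGF2BP2, which binds the IGF2 message and others, was lower, with 2.93 and 0.818 (-1.84), and KHSRP, which promotes decay of AU-rich messages, was lower with 4.03 and 1.13 (-1.84).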
